A study of Caenorhabditis elegans with 4 samples.

Results

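The regions described are the MDL-1::GFP binding peaks of chromosome IV that lie outside the 2 broad spans attributed to piRNA clusters. They were chosen by position alone, from the midpoint of each peak in coordinates of WormBase WS180: below 4.5 Mb (the left stretch), between 7 and 13.5 Mb (the middle stretch) and above 17.2 Mb (the right stretch). This gave 1164 of the 1620 peaks of chromosome IV and of the 9533 peaks in all: 461 in the left stretch, 671 in the middle stretch and 32 in the right stretch. No midpoint fell on a border, and no group of close peaks ran across one. No positions of piRNA genes in the build of the peaks were used, so the borders of the spans are taken as given and were not checked against the genes they are named for.

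Chromatin was immunoprecipitated and sequenced from fed L1 hermaphrodites of Caenorhabditis elegans, the first larval stage, kept at 20 °C. The labels give 2 anti-GFP ChIP libraries and, as their reference, 2 input DNA libraries, numbered as replicates 1 and 2. All 4 come from strain OP106, which is mutant for unc-119 (allele ed3, on chromosome III) and carries the integrated transgene wgIs106, with mdl-1 tagged by TY1, EGFP and FLAG and a rescuing unc-119(+) copy. The transgene was introduced by bombardment, its expression is described in the labels as that of mdl-1, and the genotype names no change at the native mdl-1 locus, so what was mapped is the tagged protein only. The tagged protein was recovered from whole larvae, so peaks of different cell types cannot be told apart.

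MDL-1 is a basic helix-loop-helix leucine zipper protein related to the mammalian MAD (MXD) repressors. It binds DNA as a dimer with MXL-1, the worm counterpart of MAX, at E-box sequences, and the MAD family is known for opposing activators of the MYC type at such sites. On C. elegans autosomes, the central part is gene rich and recombines little, and the arms hold more repeats and recombine more. Chromosome IV is also known for carrying most piRNA genes, small units with their own promoters that supply the guides of the Argonaute PRG-1 in the germ line.

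The files hold 1 list in which the replicates are combined, so the depth is unknown, no value has a replicate error, and no difference between stretches could be tested over samples. Strength below is -log10 of each peak's q-value as the authors deposited it. Intervals are exact 95% intervals (Poisson for densities, Clopper-Pearson for shares, order statistics for medians). They express counting error alone and assume that each peak is independent, which closely spaced peaks are not. The median strength over all 9533 peaks was 5.10, and every q-value was below 0.01.

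Peaks of the left and the middle stretch were equally dense, and as dense as those of the other autosomes as a set. The left stretch had 104 peaks per Mb (interval 94.4 to 114), the middle stretch 103 (95.6 to 111) and the right stretch 111 (75.7 to 156), against 105 (103 to 108) on I, II, III and V together. Relative to these 4 autosomes the ratio was 0.99 (0.90 to 1.08) for the left, 0.98 (0.91 to 1.06) for the middle and 1.05 (0.72 to 1.49) for the right stretch, with the error of the stretch only. Single autosomes lay on both sides: the 3 stretches together had 104 peaks per Mb, against 101 on I, 115 on II, 124 on III and 88.3 on V. The 456 peaks of the excluded spans of IV were sparser, at 91.2 per Mb in the first span and 61.6 in the second. The density of the 3 stretches was 1.41 times that of the spans (1.33 to 1.49). Peaks covered 3.35% of the left stretch, 3.55% of the middle stretch and 4.28% of the right stretch, against 3.41% of the other autosomes and 2.51% of the excluded spans.

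The equal density of the left and middle stretches differed from the pattern along the other autosomes as a set. There the same fractions of the chromosome were less dense on the left and denser in the middle. The left stretch runs over the first 25.5% of the span between the first and last peak of IV, the middle stretch from 39.8% to 77.1%, and the right stretch over what follows 98.3%. In the first 25.5% of the span the density per Mb was 104 on IV, against 102 on I, 72.9 on II, 99.2 on III and 75.4 on V. Here IV lay above each of the 4, but its interval overlapped those of I (92.4 to 113) and III (89 to 110). In the part that corresponds to the middle stretch the density per Mb was 103 on IV, against 112 on I, 138 on II, 141 on III and 105 on V. There IV lay below each of the 4, but its interval overlapped those of I (103 to 121) and V (97.9 to 112). Against I the intervals thus overlapped in both parts. Against the same fractions of the 4 autosomes together, the ratio was 1.20 (1.10 to 1.32) for the left and 0.85 (0.78 to 0.91) for the middle stretch, with the error of the stretch only. With equal distances in bases in place of fractions, the left stretch was less dense than the first part of III (107 per Mb) and the middle stretch nearly equal to I (103 per Mb).

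**Figure D1:**
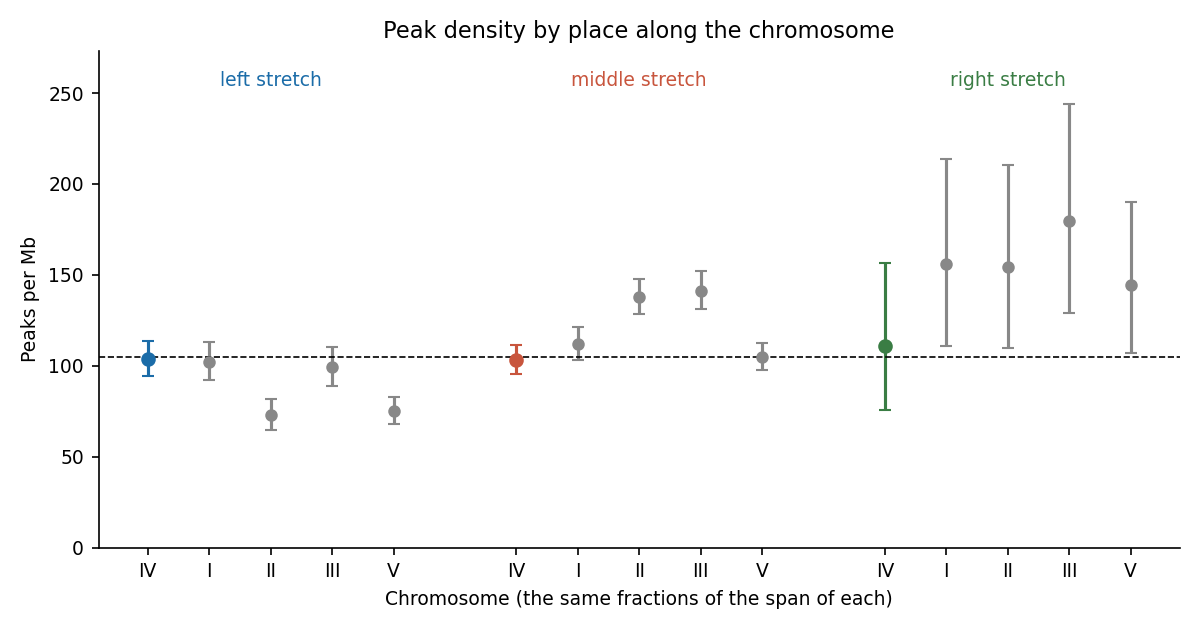
Peaks per Mb in the left, middle and right stretch of chromosome IV (coloured) and in the same fractions of the span of I, II, III and V (grey), with exact 95% Poisson intervals as bars; the dashed line is the density of those 4 autosomes, 105 per Mb. The left and middle stretch sit at 104 and 103 per Mb, whereas the other autosomes run from 72.9 to 102 on the left and from 105 to 141 in the middle.

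Peak numbers varied less among the windows of both long stretches than among those of the whole other autosomes. In windows of 500 kb the left stretch had 33 to 66 peaks, with a mean of 51.2 ± 9.74 (SD, n = 9 windows), and the middle stretch 37 to 61, with a mean of 51.6 ± 7.16 (SD, n = 13 windows). On the other autosomes windows held 7 to 93 peaks, with a mean of 52.3 ± 17.1 (SD, n = 128 windows). Single autosomes had SDs of 13.8 (III) to 17.6 (V). These windows cover whole chromosomes, arms and centre, and are more numerous. Parts of like length were not compared, so a lower spread is not shown to be particular to the stretches. No window of either stretch thus came near the extremes found elsewhere. The fullest window of the left stretch, from 4 to 4.5 Mb, held 66 peaks, and 24 of the 128 windows of other autosomes held more. It also had the highest number of peaks with a strength above 10 among the windows of both stretches, 24, and the highest median strength, 6.74. The emptiest, from 2 to 2.5 Mb, held 33 peaks. In the middle stretch the window from 12.5 to 13 Mb was the emptiest, with 37 peaks. It was also the weakest, with a median strength of 3.55, and only 5.41% of its peaks had a neighbour within 1 kb.

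**Figure D2:**
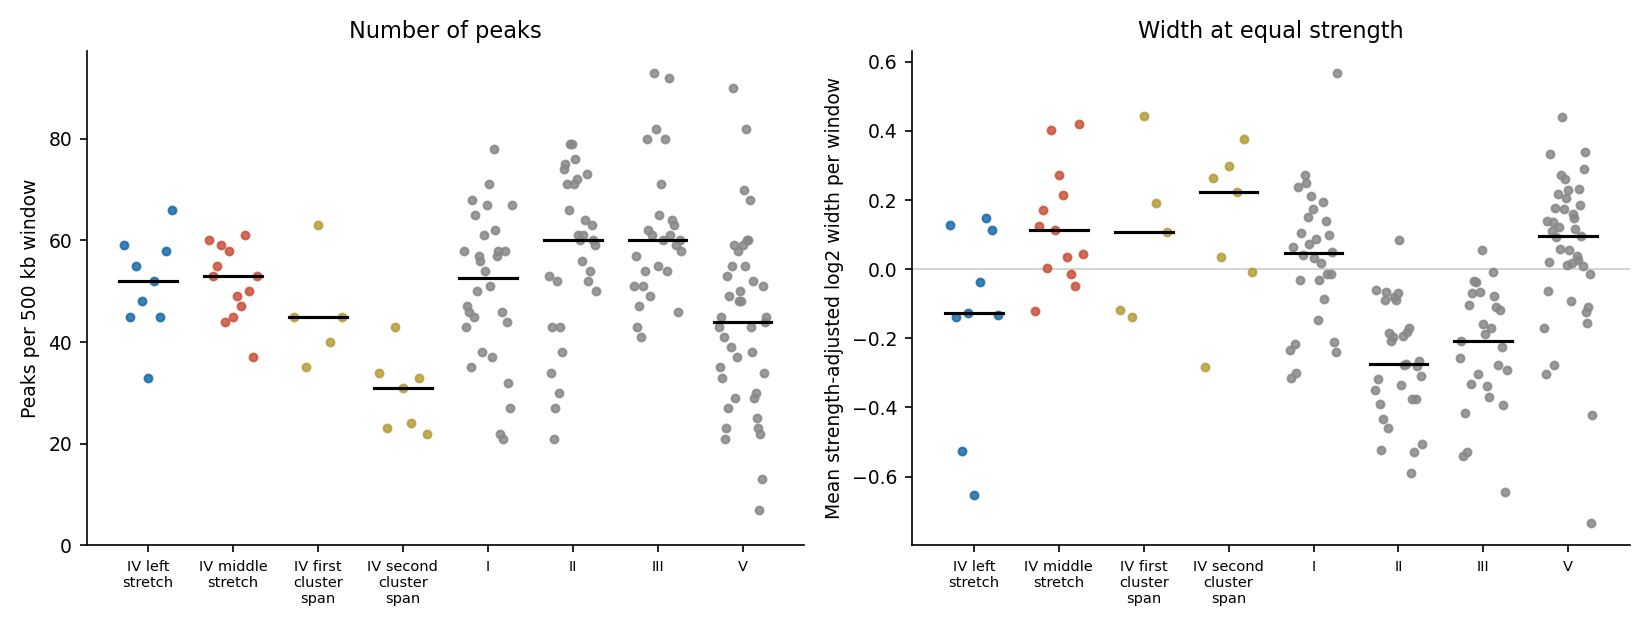
Number of peaks per 500 kb window (left panel) and mean log2 width relative to peaks of like strength (right panel), for the left and middle stretch of IV, the excluded spans of IV and chromosomes I, II, III and V; each point is a window and each bar the median. Windows of the left and middle stretch hold 33 to 66 peaks, inside the range of 7 to 93 on the other autosomes; the right stretch is shorter than a window and is not drawn.

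The left stretch had a larger share of weak peaks and a smaller share of medium ones than the middle stretch. Few peaks of the right stretch had a strength above 10. The median strength was 4.73 (4.17 to 5.45) in the left, 4.97 (4.56 to 5.47) in the middle and 3.26 (2.75 to 4.36) in the right stretch, against 5.10 (4.97 to 5.27) on the other autosomes. At the same fractions the medians of these 4 were 4.04 to 4.67 on the left, all below the left stretch. In the middle they were 5.19 to 5.69, all above the middle stretch. The intervals of both stretches overlapped those of all 4. In the left stretch 31.9% of peaks had a strength below 3 (interval 27.7 to 36.4), 37.7% one of 3 to 10 (33.3 to 42.3) and 30.4% one above 10 (26.2 to 34.8). In the middle stretch these shares were 24.1% (21 to 27.6), 49% (45.2 to 52.9) and 26.8% (23.5 to 30.4). The intervals of the left and middle stretch overlapped neither for peaks below 3 nor for those of 3 to 10. On the other autosomes the shares were 26%, 46.4% and 27.7%, and a strength above 10 was found for 27.9% of all 9533 peaks. At the same fractions each of the 4 had a larger share below 3 on the left (28.8% to 34.8%) than in the middle (21.9% to 26.3%). The excess of weak peaks on the left was thus not particular to IV. A smaller share of 3 to 10 on the left was found on I and III only. Against the same fractions of other autosomes, the left stretch had the highest share above 10 (20.8% to 26.2% on the others) and the middle stretch the lowest (27.9% to 31.4%). The interval of the middle stretch overlapped those of all 4. That of the left stretch overlapped all but that of II (16.2 to 26).

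The right stretch, 289 kb at the end of the chromosome, held few strong peaks. Of its 32 peaks, 13 had a strength below 3, 16 one of 3 to 10 and 3 one above 10, a share of 9.38% (1.98 to 25). The same end fraction of the other autosomes had 20% to 35.9% of peaks above 10, median strengths of 4.38 to 8.14 and 144 to 180 peaks per Mb. The end of IV thus lay below all 4 in density, median strength and the share of strong peaks. Its intervals for density (75.7 to 156), median strength (2.75 to 4.36) and this share (1.98 to 25) nevertheless each overlapped those of all 4.

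The strongest region of the left stretch was also its widest and lay close to the first excluded span. It ran over 3594 bp from 4468238 to 4471831, with a strength of 153, place 19 in the list. Another peak followed 565 bp on, from 4472397 to 4473346 (950 bp, strength 106), and a further one lay from 4476957 to 4478268 (1312 bp, strength 106). These 3 peaks, all above 100, thus stood within about 10 kb. They were the strongest, the fourth and the fifth of the stretch. The peaks between and behind them were weaker, with strengths of 7.16, 10.8 and 4.42. The second strongest, from 2219158 to 2219988 (831 bp, strength 123), had 3 others above 10 within 10 kb, of which the strongest reached 27.2. The third, from 2601928 to 2602414, was only 487 bp wide at a strength of 109.5. A peak with a strength of 42.8 lay between it and the longest empty part of the stretch. After the widest region came one of 2308 bp from 3231665 to 3233972 (strength 57.4) and one of 1651 bp from 3652209 to 3653859 (strength 71.7). Width and strength therefore did not give the same order.

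In the middle stretch the 4 strongest regions were all wide. The first, from 11956233 to 11957540 (1308 bp), had a strength of 185, the highest on chromosome IV and place 8 in the list. The second, from 8527305 to 8529448 (2144 bp), had 176, and the third, from 10934758 to 10937177 (2420 bp), had 139. The fourth, from 8431607 to 8433369 (1763 bp, strength 131), had no neighbour within 1 kb. All of these but the first were at the same time the 3 widest of the stretch. After these 4 the strength was 85.7 at the fifth, from 8949599 to 8950097 (499 bp), and no other peak of the stretch passed 100. The next widest, 1642 bp from 9439736 to 9441377, had a strength of only 9.62.

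In the right stretch a single region stood out. It ran over 3381 bp from 17278234 to 17281614, was place 9 in width in the whole list and had a strength of 62.2, place 198. The second strongest, from 17249684 to 17250120, was 437 bp wide with a strength of 48.5. The values that followed were 11.8 for the third (694 bp, from 17333177 to 17333870), 9.93 for the fourth (364 bp, from 17472019 to 17472382) and 6.45 for the fifth (450 bp, from 17268631 to 17269080). The widest region was directly preceded, 221 bp before its start, by the second widest of the stretch, 823 bp from 17277190 to 17278012, whose strength was only 3.05. The 694 bp region was the next in width.

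The strongest peaks of IV lay outside the excluded spans about as often as its peaks in general: 77% of the 100 strongest (67.5 to 84.8), against 71.9% of all 1620. Of the 10 strongest of the chromosome 4 lay in the left stretch, 4 in the middle stretch, none in the right stretch and 2 in the excluded spans. Of the 100 strongest, 36 lay in the left, 39 in the middle and 2 in the right stretch, and 23 in the spans. Per Mb, the strongest 10% of the whole list gave 12.4 peaks in the left stretch, 9.69 in the middle and 6.92 in the right, against 10.2 on the other autosomes and 5.81 in the spans. The left stretch thus had the most of these per Mb among the 3 stretches, less than the whole of III (14.2) and close to the whole of II (12.1). At the same fractions the other 4 autosomes had 5.06 (V) to 8.83 (III) on the left, all below the left stretch. In the middle they had 10.3 (I) to 17.9 (III), all above the middle stretch. The right stretch also lay below all 4 at its end fraction, but held only 2 such peaks. No intervals were computed for these densities.

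**Figure D3:**
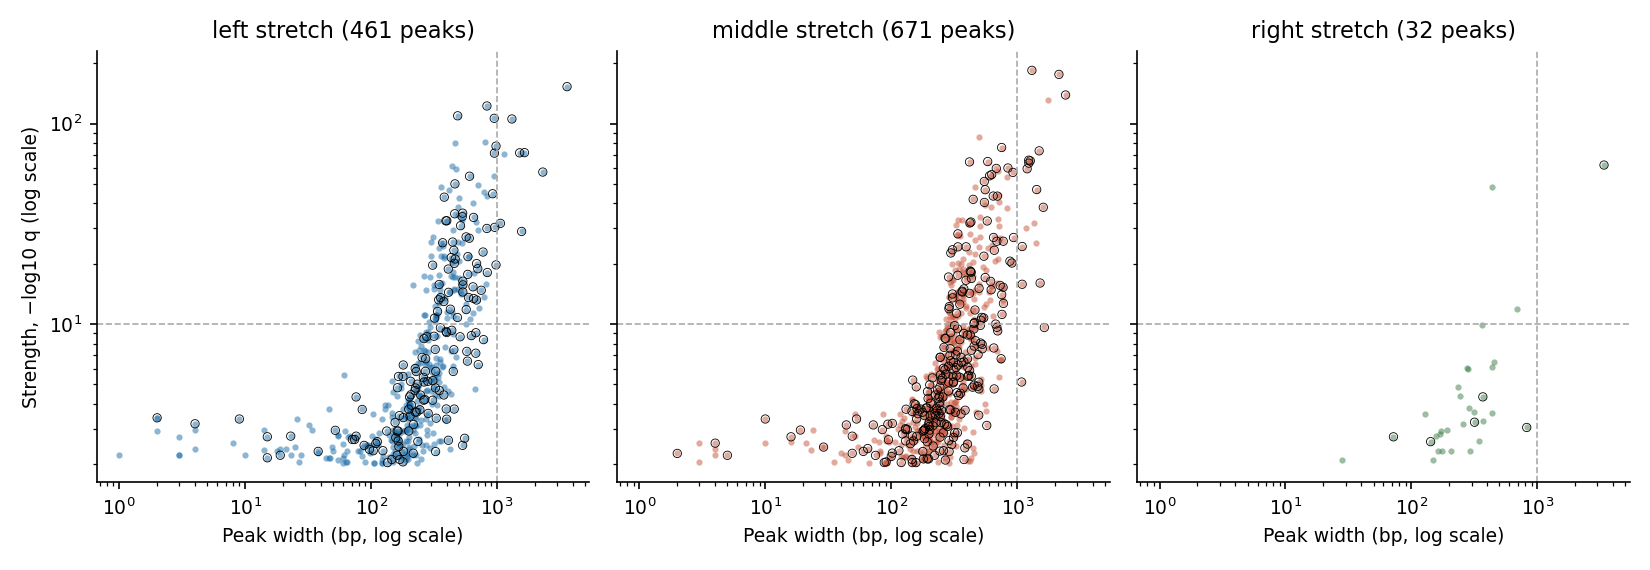
Strength against width of each of the 461, 671 and 32 peaks of the left, middle and right stretch, both on log scales; circled points have a neighbour within 1 kb, and dashed lines mark a strength of 10 and a width of 1000 bp. Both lines are passed by 8 peaks in the left, 17 in the middle and 1 in the right stretch, where most points lie under a strength of 10.

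Peaks of the middle stretch were a little wider than those of the left stretch, which held more narrow ones. The median width was 268 bp (243 to 287) in the left, 291 bp (277 to 303) in the middle and 278.5 bp (174 to 364) in the right stretch, against 270 bp (265 to 275) on the other autosomes. The quartiles were 164 and 411 bp in the left and 200 and 413.5 bp in the middle stretch, so the stretches differed in the lower part of the range. Peaks narrower than 200 bp made up 34.9% of the left stretch (30.6 to 39.5), 23.7% of the middle (20.5 to 27.1) and 34.4% of the right (18.6 to 53.2), against 30.1% on the other autosomes and 27.2% of the whole list. The shares of the left and middle stretch did not overlap in their intervals. Whole autosomes ran from 23.6% on I to 34.9% on II, so both stretches lay at the edges of that range. At the same fractions of these 4 the shares ran from 30.3% to 42.5% on the left and from 20.7% to 32.4% in the middle. Both stretches lay inside those ranges. Each of the 4 also had the larger share on the left, so this contrast was not particular to IV. Regions wider than 1000 bp numbered 8 in the left stretch (1.74%, 0.75 to 3.39), 19 in the middle (2.83%, 1.71 to 4.39) and 1 in the right. The whole list had 2.73%.

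Among weak peaks the medians of the left and middle stretch differed in the same direction. With a strength below 3 the median width was 135 bp (105 to 157) in the left, 166 bp (149 to 183) in the middle and 168 bp (142 to 206) in the right stretch, against 134 bp (128 to 140) on the other autosomes. With a strength above 10 it was 467 bp (444 to 513) in the left and 458.5 bp (426 to 507) in the middle stretch, against 441.5 bp (430 to 454). Strong peaks of the left and middle stretch were thus alike in width within these intervals, and the intervals of weak ones overlapped as well. Relative to peaks of like strength in the whole list, the mean log2 width was -0.11 in the left stretch, 0.11 in the middle and 0.51 in the right. The other autosomes gave 0.05 on I and on V, -0.27 on II and -0.21 on III. The medians of this measure were 0.01 (-0.07 to 0.09) in the left, 0.12 (0.06 to 0.18) in the middle and 0.61 (0.22 to 0.77) in the right stretch. The other autosomes together gave a median of -0.04 (-0.06 to -0.02). The median of the whole list was 0.04 (0.02 to 0.05), inside the interval of the left stretch. Single autosomes gave medians of 0.09 on I, 0.11 on V, -0.16 on II and -0.14 on III. By its median the left stretch thus lay below I and V and above II and III. Its mean includes extreme values such as -6.48 at a peak of 2 bp. In the left stretch 2 windows had the lowest means, -0.53 from 1 to 1.5 Mb and -0.65 from 2 to 2.5 Mb. The remaining 7 ran from -0.14 to 0.15, and those of the middle stretch from -0.12 to 0.42. Means at the same end fraction of the other autosomes ran from -0.61 to 0.74, with 3 of the 4 below the right stretch and 1, chromosome I, above it.

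Neighbouring peaks were spaced alike in the left and middle stretch. The median gap was 3990.5 bp (3032 to 5272) between the peaks of the left stretch, 4128 bp (3614 to 4922) in the middle and 4386 bp (3680 to 7813) in the right, against 4133 bp (3900 to 4369) on the other autosomes. Gaps were broadly distributed: quartiles were 1135 and 12738 bp in the left and 1141 and 13074 bp in the middle stretch. In the right stretch they were 2430.5 and 8164 bp, and 32.3% of its 31 gaps measured 4 to 8 kb, against 13.7% in the left, 14% in the middle and 16.6% on the other autosomes. Only 3 of these 31 gaps were 1 kb or shorter.

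**Figure D4:**
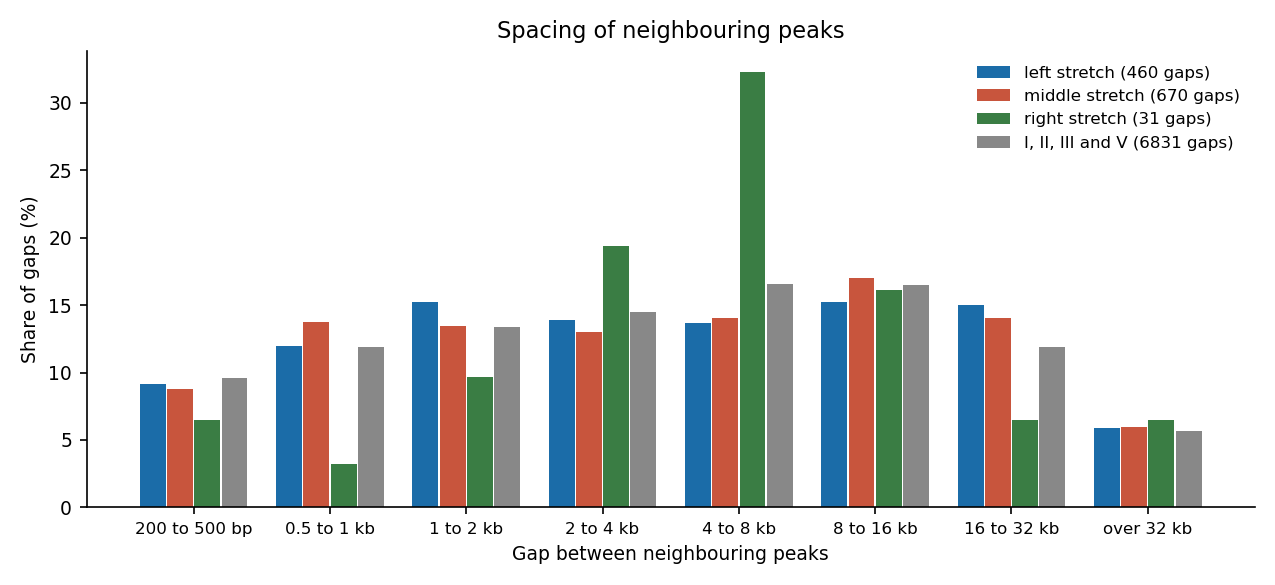
Share of the gaps between neighbouring peaks in each class of length, for the left, middle and right stretch and for I, II, III and V together. The left and middle stretch follow the other autosomes from class to class, and the right stretch has 32.3% of its 31 gaps in the class of 4 to 8 kb.

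Long empty parts were as frequent in the 3 stretches as on the other autosomes: 1.89% of 1161 gaps exceeded 50 kb, against 1.92% of 6831. The longest lay in the left stretch from 2495519 to 2599534 (104 kb), bounded by peaks with strengths of 11.1 and 42.8. The next there were 64.1 kb from 3399415 and 61.5 kb from 4110389. In the middle stretch the longest were 78.3 kb from 12920862, 66.4 kb from 10543685 and 64.8 kb from 10617376, the last 2 separated by only a few peaks. The right stretch had none over 50 kb: its longest were 46.6 kb from 17333871, 39.1 kb from 17387864 and 29.8 kb from 17215378. Gaps over 50 kb numbered 10 in the left and 12 in the middle stretch, against 24 in the excluded spans, 19 of them in the second span. On the other autosomes 131 such gaps were counted, 62 of them on V. The second span, of 3.7 Mb, thus had more than the left stretch, of 4.45 Mb, and the middle stretch, of 6.5 Mb.

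Close neighbours were as common in the left stretch as in the whole list, a little more common in the middle stretch and less common in the right stretch. Within 1 kb of another peak were 159 peaks of the left stretch (34.5%, 30.2 to 39), 261 of the middle (38.9%, 35.2 to 42.7) and 6 of the right (18.8%, 7.21 to 36.4), against 34.3% of all peaks and 35.8% on the other autosomes. Single autosomes had 33.3% on I to 38.7% on III, and the excluded spans 29.8%. The share in the middle stretch was thus close to that of III, and the right stretch lay below each autosome and below the same end fraction of each (34.1% to 44%). Its interval, from 6 peaks, still held the share of the whole list and overlapped those of all 4 end fractions. At the same fractions the left stretch lay above all 4 (23.6% to 33.1%), with an interval that overlapped all but that of II (18.8 to 29). The middle stretch lay inside its range (35.7% to 45%). In the left stretch the share was 23.1% (16.6 to 30.8) among peaks with a strength below 3 and 42.9% (34.5 to 51.5) among those above 10. In the middle stretch it was 35.2% (27.9 to 43.1) and 42.2% (34.9 to 49.8), and on the other autosomes 30.6% and 43%. Of the 20 strongest peaks, 12 in the left and 16 in the middle stretch had a close neighbour. Peaks with a close neighbour had a median strength of 6.25 in the left stretch (5.01 to 8.70) and 5.26 in the middle (4.70 to 6.09), against 4.01 (3.50 to 4.74) and 4.72 (4.19 to 5.43) for those without one. The difference by neighbourhood was thus larger in the left than in the middle stretch, and only in the left were these intervals apart. They were also apart in the excluded spans and on II, III and V, but not on I (5.39 and 5.37). The other autosomes together gave 5.81 (5.49 to 6.08) and 4.80 (4.61 to 4.98). The list gives no shape within a region, so whether close peaks are separate sites or parts of 1 site cannot be told.

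Groups joined by gaps of up to 1 kb were small. The left stretch had 62, of which 37 were pairs, 19 held 3 peaks and 6 held 4 or more. The middle stretch had 110, of which 83 were pairs, 19 held 3 and 8 held 4 or more. Pairs were 59.7% of the groups in the left (46.4 to 71.9), 75.5% in the middle (66.3 to 83.2), and 71.1% on the other autosomes, and the intervals of both stretches overlapped. The right stretch had 3 pairs only. No group of either long stretch exceeded 6 peaks, against 6 on I, 10 on II and 12 each on III and V. The strongest member was also the widest in 43 of 62 groups in the left (69.4%) and in 92 of 110 in the middle stretch (83.6%), against 78.5% on the other autosomes.

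The largest group of the left stretch held 6 peaks over 4977 bp from 4208195 to 4213171. Their strengths were, in order along the chromosome, 2.15, 6, 3.36, 13.2, 2.11 and 7.31, and their widths ran from 9 to 687 bp. A single member passed 10, and the group had no dominant peak. The second, of 5 peaks over 5042 bp from 3652209, opened with the wide region named above and declined along the chromosome, with strengths of 71.7, 50.1, 5.01, 4.17 and 3.77. The third, of 5 peaks from 78312 to 81757 near the chromosome end, had strengths of 2.93, 21.5, 4.66, 5.42 and 2.60.

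In the middle stretch 2 groups held 6 peaks. The first ran over 5695 bp from 9667134 to 9672828, with strengths of 3.51, 14.5, 4.86, 18.4, 64.7 and 11.3. With 4 members above 10 it had more strong peaks than any of the other large groups named here. The second ran from 8532088 to 8536295 and held 1 strong member of 41.9, with the others between 2.83 and 5.49. It lay 1022 bp behind the group of 3 around the second strongest region of the stretch, whose members had strengths of 40.5, 176 and 24.4. With 9 other peaks within 10 kb, that region had the most neighbours among the 5 strongest of each stretch. The third group, of 5 peaks from 12197555 to 12202312, was weak, with strengths of 5.49, 2.41, 11.2, 4.75 and 5.10.

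**Figure D5:**
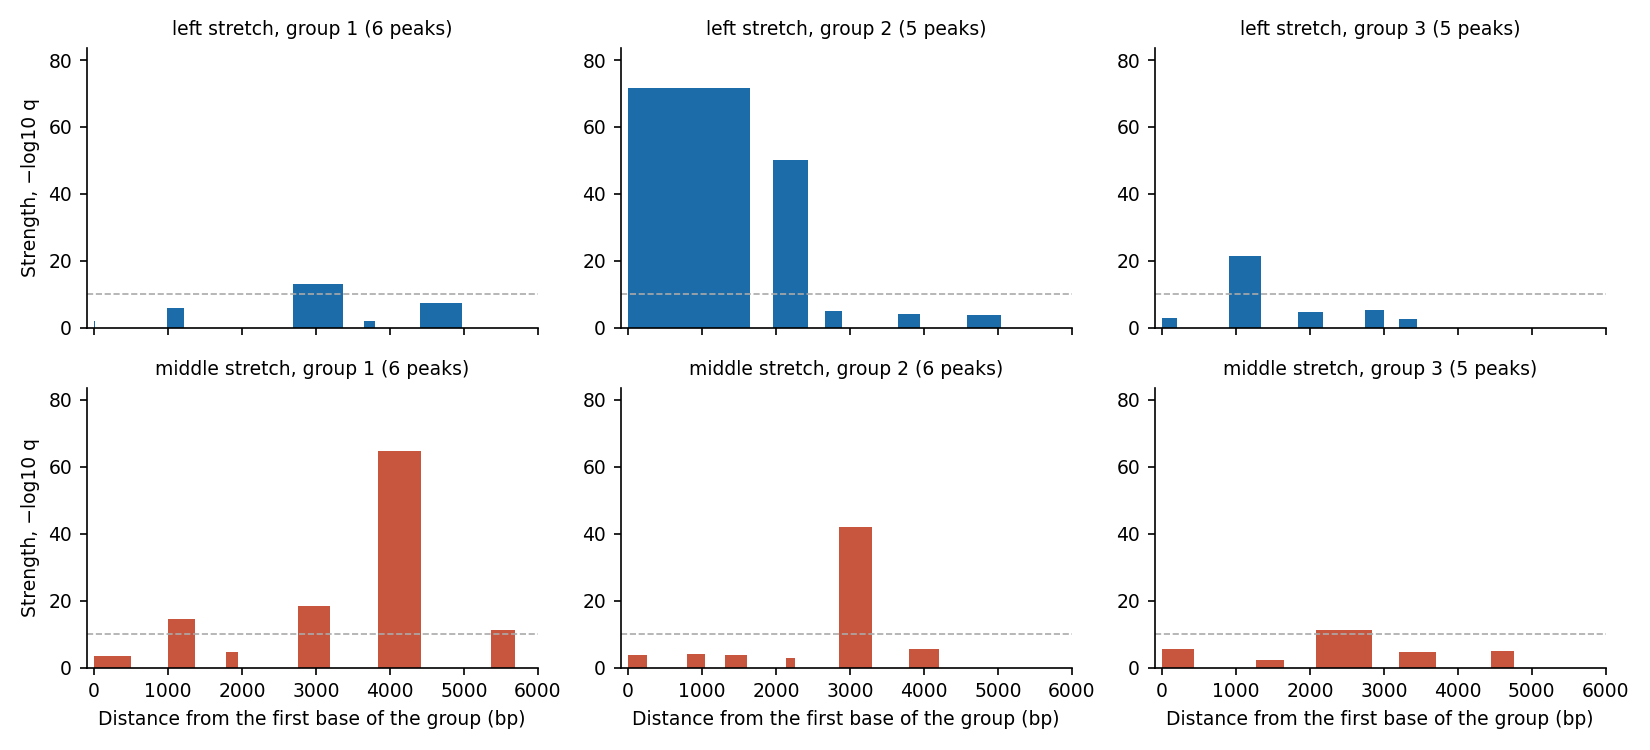
The 3 largest groups of peaks joined by gaps of up to 1 kb in the left (upper row) and middle stretch (lower row), each peak as a bar at its distance from the first base of the group, as wide as the peak and as high as its strength; the dashed line is a strength of 10. One member is clearly the highest in 3 of the groups, at 64.7 and 41.9 in the middle stretch and 21.5 in the left, and the second group of the left stretch opens with 71.7 and ends with 3.77.

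Of the 3 pairs in the right stretch, the first joins its widest region to the 823 bp peak named above. The second, from 17467333 to 17468271, had strengths of 3.24 and 4.33, and the third, from 17380448 to 17381451, had 2.59 and 2.74. The other 26 peaks of the stretch had no neighbour within 1 kb, and their median strength was 3.42.

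At the borders set by the rule the nearest peaks on both sides were unremarkable in strength. The last member of the left stretch had a strength of 2.54 and the next peak, in the first span, 3.42. Before 7 Mb the last peak of the first span had 2.04 and the first member of the middle stretch 8.14. At 13.5 Mb the last member had 5.48 and the next peak 2.55, and at 17.2 Mb the last peak of the second span had 3.33 and the first member of the right stretch 2.98.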

How the data were processed

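Per the file headers and the source column, PeakSeq made the deposited list on build WS180 of WormBase. Its name calls it combined, and it was read as covering both replicates; how they were joined, the aligner and the filters on reads are not given in the sources used. For each peak the authors deposited its end positions (1-based) and a q-value; the score column and the attribute held the same text in all 9533 peaks. Strength, width, the gap to the next peak, groups, windows of 500 kb and width relative to 20 equally filled strength classes were computed from these with Python 3.11.15, numpy 2.4.6, pandas 2.3.3 and scipy 1.17.1, and drawn with matplotlib 3.10.9. A stretch was measured between the borders of the rule, with its outer end at the first or last peak of the chromosome; other autosomes were measured from first to last peak. No filter was applied. The procedures were checked on simulated peaks of known spacing. Regions named are, in each stretch, the 5 strongest and 3 widest peaks, the 3 largest groups and the 3 longest gaps, together with peaks next to them, the next widest region of the middle stretch, the windows singled out and the peaks at the borders, which were chosen after their values were seen. The regions, comparisons and classes were chosen with earlier results of these data known. The gene table at hand is of another build, and peaks were not tied to genes. Alternatives tried were a higher strength threshold, a minimum width, merging, other lengths, other neighbour distances and matched parts of the other autosomes.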

Additional observations from a re-analysis of the deposited data

How the results depend on the processing

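Of 93 alternative values for density, ratio, width, strength, gap and neighbours of the 3 stretches, 57 lay inside the interval of the reported value and 36 outside. Above-median peaks (4766 peaks) gave densities of 49.5, 50.8 and 27.7 per Mb for the left, middle and right stretch. Their median widths were 405, 381.5 and 435.5 bp, strengths 13.6, 10.9 and 8.19, and gaps 12585, 10424 and 18510 bp. Close neighbours were found for 26.8%, 22.7% and 0% (0 of the 8 peaks left in the right stretch). Lower densities, wider and stronger peaks, longer gaps and fewer close neighbours follow from choosing strong peaks. The ratio to the other autosomes need not move, because these were filtered in the same way. It stayed inside its interval for the left and the middle stretch. For the right stretch it fell to 0.53, so its density relative to the other autosomes depended on the threshold. With 8 peaks left there, the interval of this ratio was wide and included 1. Merging within 1 kb gave 81.8 and 80.0 regions per Mb for the left and middle stretch, and 322.5 bp and a strength of 5.58 for the middle; merging within 500 bp gave 94.18 and 94.15 per Mb. The same fractions of the other autosomes gave ratios of 1.20, 0.85 and 0.71 for the left, middle and right stretch, and the same distances gave 1.16, 0.87 and 0.72, which are comparisons of place. Expressed as percentiles of the list order, another unit, strength gave medians of 47, 49 and 30.1 for the left, middle and right stretch, against 50 on the other autosomes. Neighbours within 500 bp were found for 16.7% and 17% of the left and middle stretch, and within 2 kb for 55.3%, 57.4% and 37.5% of the left, middle and right. The length from first to last peak, a minimum width of 50 bp and the omission of each other autosome moved no value outside its interval. Without V, the sparsest, the ratio of the middle stretch was 0.91, with an interval (0.84 to 0.98) that left out 1. That of the left stretch was then 0.92 (0.83 to 1.00). Without III, the densest, both ratios were 1.03. No paired analysis was possible because the list has no values for single libraries, and no replicate could be omitted either. Depth is unknown, so weaker sites below the threshold cannot be counted, and with 32 peaks the right stretch gives wide intervals.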

Other observations

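Very narrow peaks were part of the difference in width between the long stretches. Peaks under 50 bp numbered 36 in the left stretch (7.81%, 5.53 to 10.6), 25 in the middle (3.73%, 2.43 to 5.45) and 1 in the right, against 6.74% on the other autosomes and 6.58% in the excluded spans. At the same fractions each of the 4 other autosomes also had the larger share on the left. Their shares were 7.21% to 11.8% on the left and 4.45% to 8.04% in the middle. The narrowest measured 1 bp in the left stretch, 2 bp in the middle and 28 bp in the right. Among peaks with a strength above 10 none was so narrow: the narrowest measured 217 bp in the left stretch, 272 bp in the middle and 437 bp in the right. At the other end, the widest peaks with a strength below 3 measured 553 bp in the left, 450 bp in the middle and 342 bp in the right stretch.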
